A study of Homo sapiens with 23 samples.

Results

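BRD2 was compared with H3K4me3 in NCI-H23, an established line of non-small cell lung cancer cells, to describe how BRD2 is placed at promoter chromatin. The 4 libraries labelled BRD2 or H3K4me3, with 2 replicates each, were used of the 23 samples in the series. From the H3K4me3 lists a region was made wherever peaks of both replicates shared at least 1 bp, and it spans the joined intervals. This gave 20506 H3K4me3 regions of the 22320 found in either list, and each was asked whether it shared at least 1 bp with a BRD2 peak. The series comprises chromatin immunoprecipitation sequencing (ChIP-seq) of BRD2 and 10 histone marks, each with 2 libraries, and an input library not analysed here. BRD2 was precipitated with a rabbit polyclonal antibody and H3K4me3 with a mouse monoclonal one, as labelled. All groups share the same cell line and formaldehyde cross-linking. The treatment protocol names the BET inhibitor JQ1 and its solvent DMSO, but no label of these libraries says which one they received, and nothing says whether replicates were separate cultures.

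BRD2 is a member of the BET family, whose paired bromodomains bind acetylated lysines in histone tails, with a known preference for histone H4. BET proteins bring transcription factors and elongation machinery to chromatin, and JQ1 displaces them by filling the acetyl-lysine pocket. H3K4me3, trimethylation of lysine 4 of histone H3, is laid down around active and poised transcription start sites. It sits on the nucleosomes that border the nucleosome-poor start site, and broad stretches of it are known at genes of cell identity. The H3K4me3 regions stand here for promoters through that mark alone, since no gene annotation of the deposited build was used and no gene is named.

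The H3K4me3 regions covered 42.57 Mb and had a median width of 1905 bp, with a lower quartile of 1096 bp and an upper quartile of 2682 bp. The narrowest spanned 245 bp and the widest 13851 bp. In 96.7% of them each replicate had called a single peak, and the strongest summits of the replicates lay a median of 27 bp apart. The BRD2 lists held 56830 and 45730 peaks with median widths of 191 and 250 bp. BRD2 replicate 1 was the weaker list, with 64.7% of peaks at a q above 0.05 against 28.1% in replicate 2. Of its summits 28.0% lay in an H3K4me3 region, against 46.9% in replicate 2. The lists give no read numbers, so depth is unknown.

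As deposited, the BRD2 lists had a peak at more than 1 in 2 H3K4me3 regions in each replicate. Replicate 1 occupied 10724 regions (52.3%, 95% Wilson interval 51.6% to 53.0%) and replicate 2 occupied 13852 regions (67.6%, 66.9% to 68.2%). The mean was 59.9% ± 10.8 (SD, n = 2). It depends on the weak peaks of the lists: the mean was 33.0% with BRD2 peaks of −log10 q at least 5 and 36% with the 10000 strongest of each list. Windows of equal width placed 50 kb to either side, and free of H3K4me3 peaks, held BRD2 in 4.33% of 38067 cases in replicate 1 and in 2.6% in replicate 2. The share at H3K4me3 regions was thus 12.1 and 26.0 times that of the windows, and the gap of either replicate to its windows was wider than the gap between the replicates. Wilson intervals treat regions as independent and cover counting error only. An exact two-sided comparison of 2 libraries with 2 others cannot go below p = 0.333, and values are therefore given without a test.

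The regions occupied in replicate 1 lay almost wholly within those of replicate 2. BRD2 was in both lists at 10374 regions (50.6%), in replicate 2 alone at 3478 (17.0%), in replicate 1 alone at 350 (1.71%) and in neither at 6304 (30.7%). Of the regions occupied in replicate 1, 96.7% were also occupied in replicate 2, and 74.9% the other way round. Peaks inside H3K4me3 regions also recurred far more often than peaks elsewhere. In replicate 1, 91.4% of the BRD2 peaks with a summit in an H3K4me3 region overlapped a peak of replicate 2, against 7.27% of the 40891 others. In replicate 2 the shares were 58.1% and 10.3%. The median −log10 q inside and outside the regions was 2.33 and 0.740 in replicate 1, and 5.61 and 1.46 in replicate 2, so peak strength moved with location, and its part in the recurrence was not tested.

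BRD2 occupancy climbed steeply with the width of the H3K4me3 region. In replicate 1 it was 10.7% of the 1243 regions under 500 bp, 19.1% of the 3333 from 500 to 1000 bp and 47.1% of the 6371 from 1000 to 2000 bp. It went on to 70.6% of the 8057 regions from 2000 to 4000 bp and 84.1% of the 1502 of at least 4000 bp. Replicate 2 lay above replicate 1 in every class, at 19.4%, 34.2%, 64.3%, 86.4% and 94.4%. Each class includes its lower bound and not its upper one. The order of the 5 classes was the same in both replicates, and the steps between neighbouring classes exceeded their counting intervals. Regions of at least 2000 bp were occupied more often than those under 1000 bp by 55.9 points in replicate 1 and 57.5 points in replicate 2 (mean 56.7 ± 1.1, SD, n = 2).

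A wider interval has more room for a peak, so the same question was put to equal-width windows elsewhere and to windows of fixed size. Equal-width windows 50 kb away, which grow with the region, rose from 1.24% to 10.3% in replicate 1 over the same classes. In replicate 2 they rose from 0.952% to 6.65%. A fixed window of 250 bp on each side of the strongest H3K4me3 summit held BRD2 in 11.0%, 17.6%, 40.0%, 50.9% and 49.7% of regions in replicate 1. In replicate 2 it did so in 19.6%, 32.9%, 58.9%, 72.4% and 74.7%. With this window the share rose over the first 4 classes and differed little between the last and the one before it. Measured so, the gap between regions of at least 2000 bp and those under 1000 bp was 39.2 points, in place of 56.7. Summits per kb of region, including unoccupied ones, were 0.249, 0.261, 0.390, 0.395 and 0.342 in replicate 1 and 0.422, 0.467, 0.538, 0.516 and 0.447 in replicate 2. They were thus highest at intermediate widths and lower again in the widest class, which in replicate 2 lay below the 500 to 1000 bp class.

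**Figure D1:**
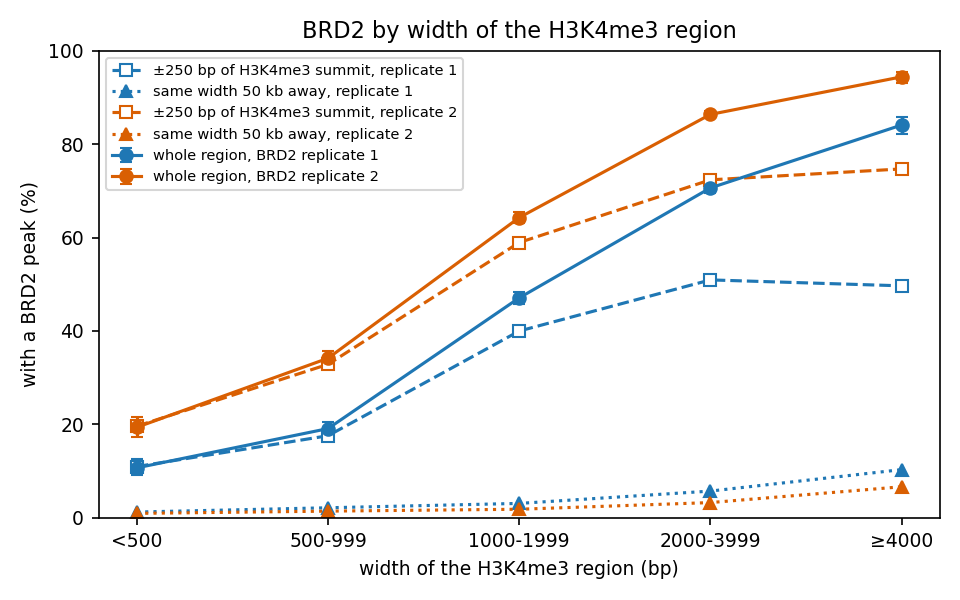
Share of H3K4me3 regions with a BRD2 peak (vertical axis, %) by width class of the region (horizontal axis, bp) for BRD2 replicates 1 and 2. Filled circles with 95% Wilson bars are whole regions and reach 84.1% and 94.4% in the widest class, open squares are fixed windows around the strongest H3K4me3 summit (mean over the H3K4me3 replicates), which level off near 50% and 75%, and triangles are equal-width windows 50 kb away, which stay at or under 10.3%.

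Width and height of H3K4me3 go together, and both moved with BRD2. Across 10 equal groups of the regions, ranked by the authors' H3K4me3 fold enrichment in replicate 1, BRD2 occupancy went from 18.9% to 79.3% in BRD2 replicate 1 and from 30.9% to 93.5% in replicate 2, while the median width went from 517 to 2679 bp. Within a width class the relation depended on the class. Among regions of 1000 to 2000 bp, BRD2 replicate 1 occupied 35.4%, 47.3% and 58.6% of the lowest, middle and highest of 3 equal groups by H3K4me3 fold. Among regions under 500 bp the order was the opposite, at 14.5%, 10.8% and 7.06%. BRD2 replicate 2 had the same opposite orders, 50.7%, 63.8% and 78.4% in the former and 24.1%, 21.1% and 13.4% in the latter, and ranking by the H3K4me3 fold of replicate 2 kept both. Median width also rose over the 3 groups, from 1268 to 1762 bp in the former and from 386 to 447 bp in the latter. Width was thus not held fixed, and its part was not tested. Regions of 500 to 1000 bp had no steady order, at 21.0%, 16.8% and 19.5% in BRD2 replicate 1 and 35.4%, 29.2% and 38.0% in replicate 2.

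BRD2 was much scarcer at acetylated chromatin without H3K4me3. H3K27ac, acetylation of lysine 27 of histone H3, marks active promoters and enhancers. Of 36860 H3K27ac regions called in both lists and free of H3K4me3, BRD2 replicate 1 occupied 6.77% and replicate 2 occupied 8.50%. There too the share rose with width, from 2.49% under 500 bp to 32.2% at 4000 bp or more in replicate 1, and from 1.96% to 47.9% in replicate 2. In each width class it lay below the share at H3K4me3 regions of the same class in both replicates. These sets were matched for width only. Their H3K27ac fold and their other acetylation marks were not compared, and the part of these in the difference was not tested.

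Most occupied H3K4me3 regions carried a single BRD2 peak, and the number grew with width. Replicate 1 had 1 peak in 6583 occupied regions (61.4%), 2 in 3205 (29.9%), 3 in 687 (6.41%) and 4 or more in 249 (2.32%). Replicate 2 had 1 in 7862 (56.8%), 2 in 4605 (33.2%), 3 in 984 (7.10%) and 4 or more in 401 (2.90%). The mean was 1.51 and 1.58 peaks per occupied region (1.54 ± 0.0496, SD, n = 2). The share with at least 2 peaks was 40.9% ± 3.27 (SD, n = 2). From the narrowest to the widest class the mean number per occupied region was 1.08, 1.13, 1.29, 1.53 and 2.18 in replicate 1 and 1.06, 1.13, 1.31, 1.63 and 2.54 in replicate 2.

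Per length, however, occupied regions held fewer BRD2 summits as they widened. Replicate 1 fell from 1.31 summits per kb in occupied regions of 500 to 1000 bp to 0.402 in those of at least 4000 bp, and replicate 2 from 1.32 to 0.471. A region counts as occupied only with at least 1 peak, which sets a high density in narrow ones. The strongest BRD2 peak of a region was also stronger in wider regions. Its median fold enrichment went from 3.54 under 500 bp to 4.69 at 4000 bp or more in replicate 1, and from 4.92 to 8.65 in replicate 2. Wider occupied regions hold more peaks, so their strongest is picked from more of them, and the part of this in the rise was not tested. These folds are the authors' values and are compared only within a list.

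**Figure D2:**
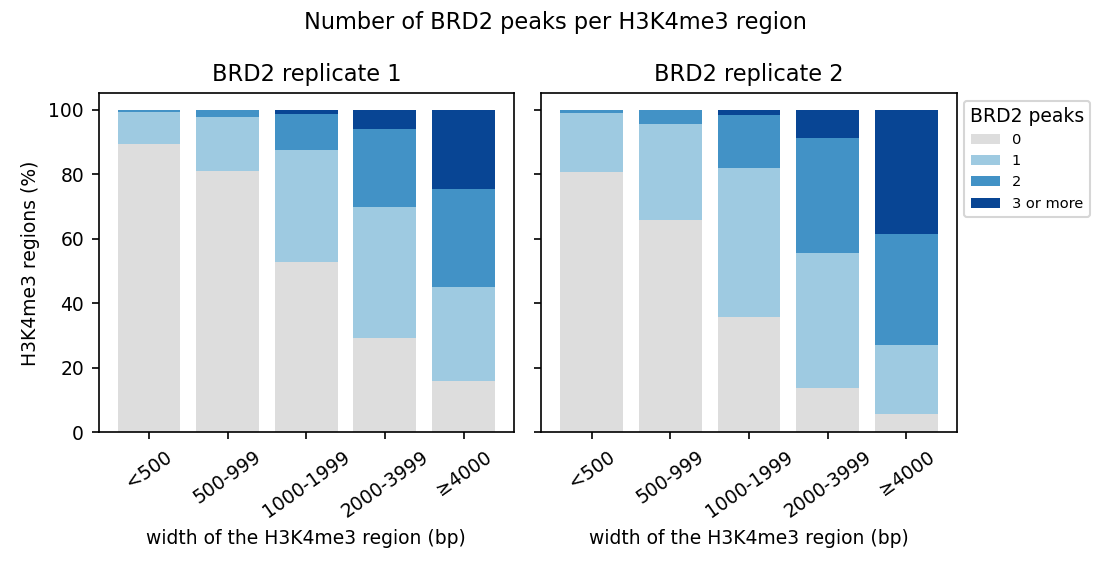
Share of H3K4me3 regions (vertical axis, %) holding 0, 1, 2 or at least 3 BRD2 peaks, by width class (horizontal axis, bp), with 1 panel for each BRD2 replicate. Regions with at least 3 peaks are 1.33% and 1.65% at 1000 to 2000 bp and 24.7% and 38.6% at 4000 bp or more.

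The number of BRD2 peaks at a region was only partly shared between replicates. Among the 10374 regions occupied in both lists, 51.8% had the same number in each, 29.1% had more in replicate 2 and 19.1% more in replicate 1. At least 2 peaks were called by both replicates at 2580 regions. The share with equal numbers that unrelated lists would give was not computed. Position was shared to a degree as well. Where each list had a summit in the region, the strongest summits lay a median of 82 bp apart over 10241 regions, 55.7% within 100 bp and 12% more than 500 bp apart.

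Neighbouring BRD2 summits in a region were mostly 300 to 800 bp apart. The median spacing was 566 bp over 5299 neighbouring pairs in replicate 1 (quartiles 431 and 769 bp) and 605.5 bp over 7752 pairs in replicate 2 (468 and 821 bp). Spacings of 300 to 800 bp made up 72.3% and 70.6% of pairs, and those under 300 bp 4.96% and 2.62%. Each interval of these lists has 1 summit, so closer binding within an interval could not be seen. In regions with exactly 2 BRD2 summits, these stood on both sides of the region's centre in 44.6% of 3124 cases in replicate 1 and 49.0% of 4473 cases in replicate 2. They flanked the strongest H3K4me3 summit in 29.3% and 30.7%. No expected share was computed for either position, so these values do not show a flanking arrangement.

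BRD2 summits favoured the middle of H3K4me3 regions, though less tightly than the H3K4me3 summits themselves. The central 50% of the length held 69.9% of 15937 summits in replicate 1 and 69.3% of 21464 in replicate 2 (69.6% ± 0.447, SD, n = 2), where an even spread would put 50%. The outermost 20%, next to the edges, held 5.79% and 5.63%, where an even spread would put 20%. In 10 equal steps from centre to edge, replicate 1 went from 16.2% in the innermost to 2.15% in the outermost and replicate 2 from 15.8% to 1.85%, falling at each step. The median distance to the nearer edge was 796 and 761 bp, and that to the centre 391.5 and 384 bp.

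The central share of BRD2 fell among those of the acetylation marks called in the same regions. The central 50% held 93.3% and 93.0% of H3K4me3 summits in the 2 replicates, a central position that the regions' own construction favours. H3K27ac had 76.3% and 73.5%, H4K5acK8ac 63.3% and 64.4%, and H4K12ac 55.8% and 57.5%. H4K5acK8ac is the H4 tail acetylated at lysines 5 and 8 together. BRD2 thus lay between H3K27ac and the H4 acetylation marks, and its replicates did not overlap those of H3K27ac, H4K5acK8ac or H4K12ac. H4K8ac spread widely between its replicates, at 60.1% and 49.0%. H3K4me1, the monomethyl mark known from enhancers and promoter flanks, had the reverse profile, with 13.8% and 13.9% in the central 50% and 50.8% and 52.7% in the outermost 20%.

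**Figure D3:**
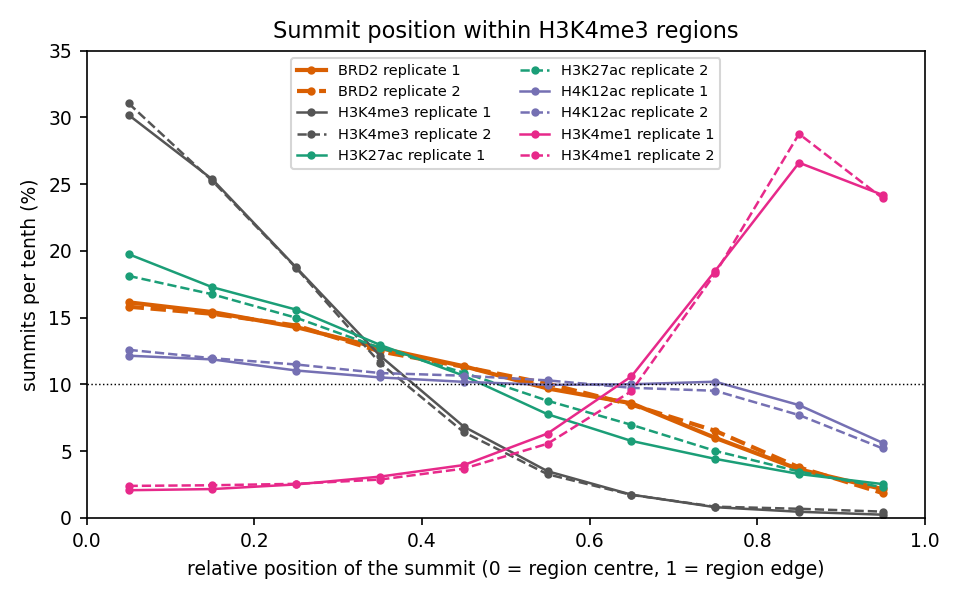
Distribution of summits over H3K4me3 regions, as the share of summits (vertical axis, %) in each of 10 equal steps from the region's centre (0) to its edge (1), for BRD2, H3K4me3, H3K27ac, H4K12ac and H3K4me1, with replicate 1 solid and replicate 2 dashed. The dotted line is an even spread of 10% per step, and BRD2 falls from 16.2% and 15.8% at the centre to 2.15% and 1.85% at the edge while H3K4me1 is highest near the edge.

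The central preference varied with region width and with the strength of the BRD2 peak. In regions of at least 4000 bp the central 50% held 58.1% and 58.4% of BRD2 summits, against 71.9% and 70.4% in regions of 2000 to 4000 bp and 73.5% and 73.8% in those of 1000 to 2000 bp. Peaks of replicate 1 with a q above 0.05 had 63.7% of summits in the central 50%, and those that reached a −log10 q of 5 had 77%. In replicate 2 these shares were 60.6% and 74.3%. Stronger BRD2 peaks therefore sat more centrally in both lists, and the weak ones still exceeded an even spread.

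BRD2 summits were sparse outside the edges of wide H3K4me3 regions and became denser only well inside them. Around the edges of the 9559 regions of at least 2000 bp, the density was 0.0271 and 0.0272 summits per kb from 1500 to 500 bp outside. In the last 500 bp before the edge it was 0.0308 and 0.0400. It was 0.0714 and 0.0952 in the first 200 bp inside, 0.235 and 0.331 from 200 to 500 bp inside, and 0.452 and 0.597 from 500 to 1000 bp inside. The edge itself is where H3K4me3 calling stopped in the more extended replicate.

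Relative to the H3K4me3 summit, BRD2 formed a central cluster with a shoulder on either side. In regions of at least 2000 bp the strongest BRD2 summit lay within 200 bp of the strongest H3K4me3 summit in 34.5% of 6943 regions in BRD2 replicate 1 and 34.7% of 8363 in replicate 2, with H3K4me3 replicate 1 as the reference. The next 200 bp held fewer, 12.5% and 12.8%, than the 400 to 600 bp range, 15.2% and 15.4%, or the 600 to 800 bp range, 14.9% and 15.3%. H3K4me3 replicate 2 as the reference gave 12.6% and 12.5% for the dip against 15.5% and 15.5% for the 400 to 600 bp range. The dip and the shoulder were thus present in all 4 pairings of libraries. H3K27ac had a taller centre, with 45.4% and 45.2% within 200 bp. Its share at 200 to 400 bp, 12.6% and 8.79%, lay below that at 400 to 600 bp, 15.0% and 13.0%, in both replicates, but in replicate 1 not below the 12.2% at 600 to 800 bp. H4K5acK8ac had a deeper dip than BRD2, with 8.47% and 7.46% at 200 to 400 bp. It had 13.3% and 13.05% at 400 to 600 bp and 17.55% and 18.8% at 600 to 800 bp. The dip and shoulder were thus not particular to BRD2.

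The strongest H3K4me3 summit lay a median of 271.5 bp from the centre of these wide regions, so its sides were told apart by which one faced the centre. Towards the region's centre lay 58.8% of BRD2 summits in replicate 1 and 59.6% in replicate 2. At 500 to 700 bp from the H3K4me3 summit, 1007 summits of replicate 1 lay on the side of the centre and 761 on the side of the nearer edge. In replicate 2 these were 1347 and 1006. More of the region lies on the side of the centre, so this count carries the geometry of the regions as well as BRD2. Within 200 bp of the H3K4me3 summit the sides held 1725 and 1700 summits in replicate 1 and 2279 and 2077 in replicate 2. With H3K4me3 replicate 2 as the reference these were 1789 and 1673, and 2336 and 2112. The pairings reuse the same 2 BRD2 lists and are not separate evidence, and the difference in replicate 1 was small. H3K27ac had the same order, with H3K4me3 replicate 1 as the reference. Towards the centre lay 63.3% and 61.9% of its summits, and within 200 bp the sides held 2208 and 2143 in replicate 1 and 2348 and 2343 in replicate 2.

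**Figure D4:**
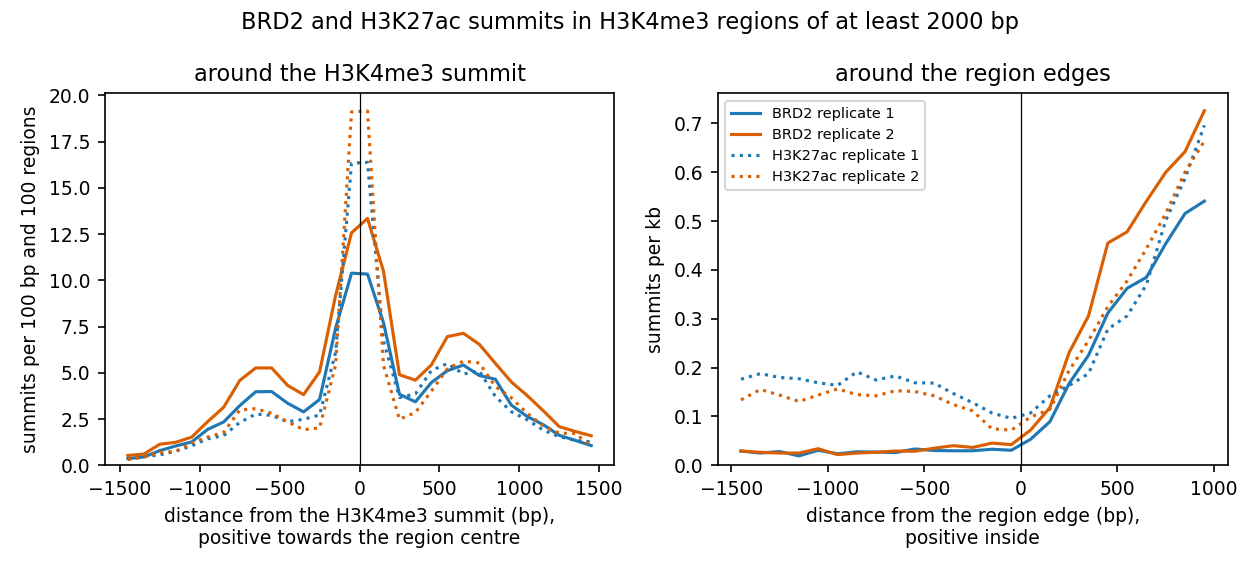
Left, summits per 100 bp and 100 regions (vertical axis) by distance from the strongest H3K4me3 summit of replicate 1 (horizontal axis, bp, positive towards the region's centre). Right, summits per kb (vertical axis) by distance from the region's edges (horizontal axis, bp, positive inside), both for H3K4me3 regions of at least 2000 bp, with BRD2 solid, H3K27ac dotted, replicate 1 blue and replicate 2 orange. BRD2 shows a central peak with a shoulder on each side, and near the edge it goes from 0.0308 and 0.0400 summits per kb just outside to 0.452 and 0.597 from 500 to 1000 bp inside.

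Single regions show how differently BRD2 can be laid out under similar H3K4me3. Positions are 1-based in build hg19, which the submitters' processing notes name. The widest region, chr10:8090151-8104001, spanned 13851 bp and held 6 BRD2 peaks in replicate 1 and 9 in replicate 2. All 6 summits of replicate 1 lay on one side, between 5314 and 1414 bp below the centre in coordinate. Those of replicate 2 ran from 5658 bp below to 1916 bp above it. The second widest, chr1:8075141-8088620, spanned 13480 bp and held 1 peak in each list, with folds of 5.82 and 5.29. These summits lay 5023 and 5134 bp from the centre but 67 and 61 bp from the strongest H3K4me3 summit. A pair of regions of nearly equal width and similar H3K4me3 fold (73.6 and 79.6 in the first, 87.2 and 77 in the second) thus held many BRD2 peaks or a single one.

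Of the other widest regions, chr18:3446646-3459752 held 7 and 12 peaks, chr1:155097175-155110198 held 5 and 6, and chr17:79474435-79487137 held 3 and 5. All 5 of the widest carried the 5 acetylation marks in both lists, and none carried H3K27me3 or H3K9me3. The chromosome 18 region also headed the regions ranked by the number of BRD2 peaks. Behind it came chr12:34497141-34506914 with 14 peaks in replicate 1 but 5 in replicate 2, and chr22:30636125-30645207 with 11 and 8. The chromosome 12 region is one where the replicates disagree on number, yet their strongest summits lay 32 bp apart. Next were chr10:3820012-3829225 with 9 in each and chr1:234738272-234750210 with 8 in each. The 8 summits of the latter lay almost wholly on one side in both lists, from 17.5 to 4634 bp above the centre in replicate 1 and from 31.5 bp below to 5682 bp above it in replicate 2.

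The 5 regions with the strongest BRD2 held 1 or 2 peaks in each list, as did most occupied regions. Over all occupied regions, 61.4% in replicate 1 and 56.8% in replicate 2 held 1 peak, and 29.9% and 33.2% held 2. The region chr2:3622119-3627694 led with BRD2 folds of 26.5 in replicate 1 and 56.9 in replicate 2, from 1 peak in each list and with summits 4 bp apart. The region chr16:70556167-70560120 had 24.2 and 43.8, with 2 peaks in each list. At chr1:93297571-93300799 the folds were 23.8 and 54.1, at chr17:80415487-80417724 they were 23.5 and 45.8, and at chr2:62113151-62117003 they were 23.3 and 46.9. In these 5 regions the replicates' strongest summits lay 4 to 33 bp apart, tighter than the median of 82 bp. The regions were picked for a high fold in both lists, and the part of this in the closeness was not tested. None of these strongest summits coincided with the H3K4me3 summit, the distances being 280 to 744 bp.

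H3K4me3 regions without a called BRD2 peak in either list were narrower and more weakly marked than occupied ones. Of the 6304, 3117 (49.4%) were under 1000 bp and 1048 (16.6%) were at least 2000 bp wide, against 6.66% and 65.7% of the regions with BRD2 in both lists. Their median width was 1009 bp against 2367 bp. Their median H3K4me3 fold was 21.0 and 22.3 in the H3K4me3 replicates, against 79.5 and 89.1. The share without BRD2 was 78.9% under 500 bp, 64.1% from 500 to 1000 bp, 33.6% from 1000 to 2000 bp, 12.1% from 2000 to 4000 bp and 4.73% at 4000 bp or more. It rests on the stronger BRD2 list: without replicate 2, 47.7% of all regions were unoccupied in place of 30.7%. It rests on the peak threshold too, with 53.9% at a BRD2 −log10 q of at least 5 and 57.4% when each list was limited to its 10000 strongest peaks. The nearest BRD2 summit of either list lay a median of 12851 bp from their edge, and 157 of them (2.49%) had one within 500 bp.

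Histone acetylation was called far less often at these regions than at the occupied ones. With BRD2 in both lists, H4K5acK8ac was called at 99.95% and 100% of regions in its 2 replicates and H3K27ac at 99.1% and 99.8%. With BRD2 in neither, H4K5acK8ac was called at 53.4% and 65.9% and H3K27ac at 39.4% and 48.6%. H4K5ac (55.6% and 53.8%) and H4K12ac (51.5% and 50.2%) resembled them, and H4K8ac was lower, at 41.2% and 19.1%. H3K27me3, the mark of Polycomb repression, went the other way, with 23.5% and 30.8% of regions without BRD2 and 1.70% and 3.26% of those with it in both lists. H3K36me3, which marks transcribed gene bodies, was called at 4.19% and 3.86% against 29.7% and 28.9%.

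Because the classes differ in width, the marks were also compared within a width class. Among regions of 2000 to 4000 bp, 977 had no BRD2 and 5570 had it in both lists. H3K27ac was called at 69.0% and 79.6% of the former and 99.9% and 100% of the latter. H3K27me3 was called at 28.4% and 38.3% against 1.40% and 2.82%. H3K36me3 was called at 6.55% and 6.45% against 35.7% and 34.9%. H3K4me1 and H3K9me3 differed least between the classes, H3K4me1 at 89.3% and 98.7% against 97.7% and 99.8%, and H3K9me3 at 3.58% and 3.07% against 2.48% and 3.09%. Regions of 1000 to 2000 bp gave the same directions for H3K27ac, H3K27me3 and H3K36me3 in both replicates of each mark.

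**Figure D5:**
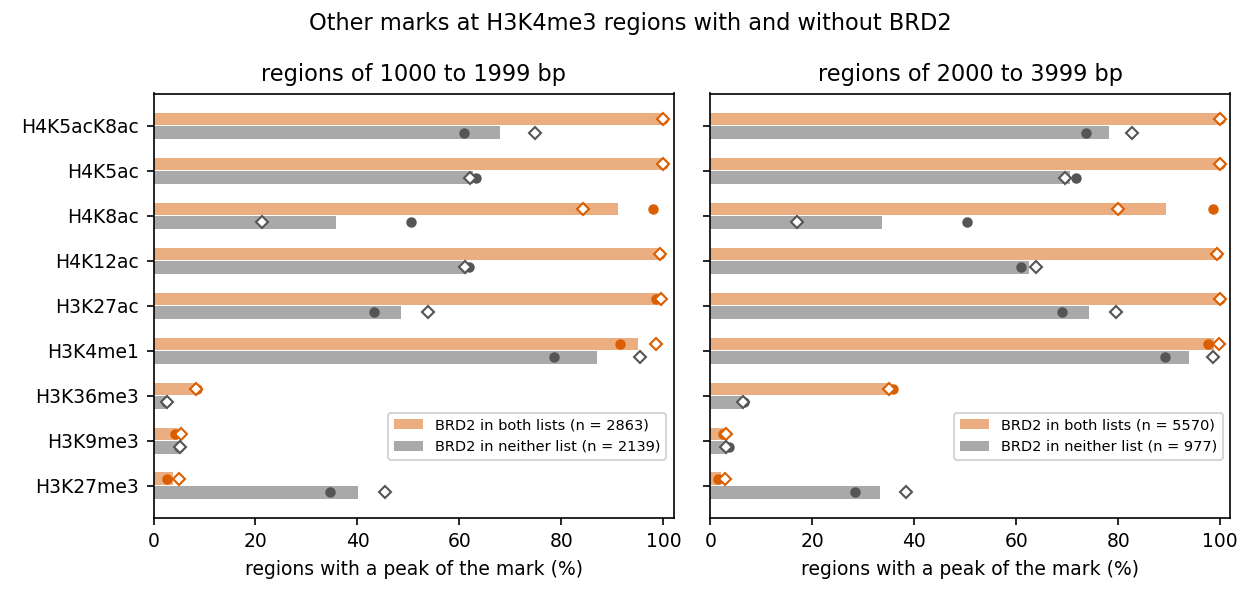
Share of H3K4me3 regions with a peak of each other mark (horizontal axis, %) for regions with BRD2 in both lists (orange) and in neither (grey), in 2 width classes. Bars are the mean of the mark's replicates, filled circles replicate 1 and open diamonds replicate 2; at 2000 to 4000 bp H3K27me3 is at 28.4% and 38.3% without BRD2 and 1.40% and 2.82% with it.

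Read from the side of the marks, BRD2 was rare where H4K5acK8ac was not called. Of the 2047 H3K4me3 regions without H4K5acK8ac in either list, BRD2 replicate 1 occupied 17 (0.831%, Wilson interval 0.519% to 1.33%) and replicate 2 occupied 13 (0.635%, 0.371% to 1.08%). Of the 17333 with H4K5acK8ac in both lists they occupied 61.6% and 79.5%. Restricted to regions of 1000 to 2000 bp, the shares were 0.969% and 0.581% without the mark and 54.5% and 74.5% with it. The other H4 marks gave higher shares when absent from both of their lists. BRD2 then occupied 1.14% and 2.15% of 2463 regions for H4K5ac, 1.71% and 5.43% of 2576 for H4K12ac, and 4.76% and 13.6% of 4095 for H4K8ac. Among the H4 marks these shares rose in the order of the number of regions that the lists missed. The part of list strength in that order was not tested. For H3K27ac the shares were 1.76% and 3.93% of 3180 regions lacking it and 66.4% and 84.0% of 15883 carrying it. Where H3K27me3 was called in both lists (1766 regions), BRD2 occupied 9.97% and 20.7%, against 58.6% and 74.2% where it was in neither.

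The share with BRD2 rose with the number of acetylation marks called in both of their lists. From 0 to 5 marks it was 0.732%, 2.38%, 5.35%, 10.8%, 44.3% and 80.9% in replicate 1 and 0.961%, 4.86%, 15.4%, 32.4%, 72.6% and 94.5% in replicate 2. The median width rose as well, from 734.5 to 2233 bp, and its part in this order was not tested. No region with BRD2 in both lists was free of acetylation peaks in all 10 acetylation lists, a count of 0 that allows up to 3 of 10374 for counting error alone. Of the regions without BRD2, 1113 (17.7%) were free of them, against 5.48% of all H3K4me3 regions. All 5 marks were in both lists at 463 (7.34%), against 51.5% of all H3K4me3 regions. Most regions without BRD2, 4728 (75%), lay between, with some acetylation lists but not all 10, against 43.05% of all.

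Wide H3K4me3 regions without BRD2 had lower median folds of each acetylation mark even where all were called, by amounts that differed between marks. Of the 1048 regions of at least 2000 bp without BRD2, 121 carried all 5 acetylation marks in both lists. Folds are those of the strongest peak with its summit inside the region, which not every region had. The median H3K27ac fold was 14.7 over 115 of the 121 in H3K27ac replicate 1 and 11.9 over 113 in replicate 2. In equally acetylated wide regions with BRD2 in both lists it was 48.4 and 44.3. The H4K5acK8ac fold, over 118 of the 121 in each replicate, was 9.53 and 9.69 against 26.4 and 23.4, while the H3K4me3 fold was 78.6 and 88.6 against 85.8 and 95.7. The interquartile ranges of the H4K5acK8ac fold, 6.63 to 13.4 against 19.7 to 34.9 in replicate 1, did not overlap, and those of H3K4me3, 61.8 to 93.4 against 70.1 to 97.6, did. Among the acetylation marks, the medians lay closest together in H4K8ac replicate 2, with 3.45 against 4.23 and overlapping quartiles (3.02 to 3.86 against 3.58 to 5.26). Over all 1048, the acetylation marks also covered less of the region: H3K27ac a median of 43.4% of its length against 85.3%, and H4K12ac 9.41% against 49.8%. H3K4me1 covered 46.0% and 43.8%.

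The most strongly marked regions without BRD2 were 1489 to 2326 bp wide, and each of the 5 acetylation marks was called there in at least 1 list. The region chr19:1883615-1885940 had H3K4me3 folds of 111.6 and 122.9, all 5 acetylation marks in both lists, and its nearest BRD2 summit 2372 bp away. On the X chromosome, chrX:153607435-153609712 had folds of 111.6 and 119.3 and a BRD2 summit 562 bp beyond its edge, and chrX:149105508-149107518 had 111.4 and 119.9 with the nearest at 21047 bp. At chr3:50364391-50366469 the folds were 111.2 and 120.6 and the nearest BRD2 summit lay 4937 bp away. The widest without BRD2 was chr1:205284437-205291278, at 6842 bp with folds of 100.1 and 111.4, followed by chrX:23798821-23805536 at 6716 bp with folds of 75.4 and 82.0. The next, chr6:27634654-27641261, spanned 6608 bp, and H4K8ac was the acetylation mark called there in neither list. None of the 5 most strongly marked and none of the 5 widest carried H3K27me3 in either list, although 27.3% of the wide regions without BRD2 carried it in both.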

How the data were processed

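Each library had a deposited headerless list of peaks in narrowPeak layout, called separately per library as far as the labels show. BWA, MACS2 and build hg19 are named in the submitters' processing notes, and their versions and settings are not given in the sources used here. The deposited fold of each peak is its enrichment over local background, a ratio, the deposited −log10 p and −log10 q are its significance, and the last deposited column is the summit offset; the authors made all of these. They were used inside a single list only, for description, ranking and filtering. The lists were called at a −log10 p of about 2 (lowest value 2.00 to 2.11 in the 4 lists), so they hold weak peaks. Mitochondrial peaks were left out.

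H3K4me3 regions were the joined intervals of peaks from either list that contain a peak of both. A BRD2 peak counted at 1 bp of overlap, and a summit by its position. Marks at a region were counted the same way in the 18 lists of the 9 other marks. Shares were computed per BRD2 list and given as mean ± SD. Intervals, counts and distances came from Python 3.11.15 with numpy 2.4.6, pandas 2.3.3 and scipy 1.17.1, plots from matplotlib 3.10.9, and the functions were tested on simulated intervals.

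The members, lists and alternatives were chosen with earlier results of these data known. Named regions are, by rule, the 5 widest, the 5 with most BRD2 peaks summed over both lists, the 5 with the strongest BRD2 (lower fold of the replicates), and, without BRD2, the 5 strongest and the 5 widest; some of the last 2 sets are not printed. No genes, gene lists, cell type markers or promoter sequences were analysed here, because no annotation of the deposited build was used. Replicate numbers did not pair the libraries by any label.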

Additional observations from a re-analysis of the deposited data

Results flagged for a closer look

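The 1814 H3K4me3 regions called in 1 replicate only, 722 in replicate 1 and 1092 in replicate 2, stayed outside the comparisons. They had a median width of 301 bp. BRD2 replicate 1 overlapped 205 of them (11.3%) and replicate 2 overlapped 368 (20.3%), above the 3 counts that a count of 0 allows. Those shares stand beside 10.7% and 19.4% for the regions under 500 bp called in both replicates.

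H3K4me3 replicate 1 held 8 peaks on the mitochondrial genome, above the same limit, and replicate 2 held 0. The BRD2 lists held 2 each.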

How the results depend on the processing

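Of 63 recomputed values of 5 results, 35 moved by less than the spread between replicates or the counting interval, 28 moved by more and 0 reversed. Only the gap between wide and narrow regions could change sign, since shares and peak numbers cannot be negative. Leaving out a BRD2 list moves a mean of both by less than their SD by construction, so such values count among the small moves. The replicates' central shares differ by so little that small shifts count as moves. Keeping BRD2 peaks with q at most 0.05 gave a wide-minus-narrow gap of 54.0 points, 1.41 peaks per occupied region, 71.4% of summits in the central 50% and 34.6% of regions without BRD2. At a BRD2 −log10 q of at least 5, occupancy was 33.0%, the gap 40.1 points, 1.15 peaks per region, the central share 75.7% and the share without BRD2 53.9%. With the 10000 strongest BRD2 peaks these were 36%, 45.0 points, 1.18, 75% and 57.4%. Counting BRD2 by its summit gave a gap of 58.3 points, and the fixed window 39.2 points. Joining H3K4me3 peaks across 1000 bp gave a central share of 68.5% and 29.2% without BRD2. H3K4me3 peaks at a −log10 q of at least 5 gave 28.8% without BRD2. The cause of these moves was not tested.

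Leaving out 1 library at a time gave occupancy of 52.3% to 67.6%, gaps of 55.9 to 58.8 points, 1.51 to 1.58 peaks, central shares of 69.0% to 69.9% and 32.5% to 47.7% without BRD2, the highest without BRD2 replicate 2. As a replicate block, with BRD2 and H3K4me3 lists of the same number compared, the gap was 57.9 points, the central share 69.1% and the share without BRD2 42.8%, the last a mean of single lists. Over 23588 bins of 100000 bp the replicate differences of BRD2 and H3K4me3 peak numbers had a correlation of 0.00781, which does not pair them. Depth is unknown, so a region without a called BRD2 peak may hold BRD2 under the limit of the list. The planned comparison of gene lists was not run.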

Other observations

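The share of H3K4me3 regions without BRD2 varied between chromosomes. On the autosomes it ran from 20.5% on chromosome 17 to 45.6% on chromosome 4, and it was 40.4% on the X chromosome. Among regions of at least 2000 bp it was 6.60% on chromosome 17, 19.1% on chromosome 4 and 20.1% on X.

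Narrow gaps between neighbouring H3K4me3 regions held BRD2 summits at a lower density than the regions, but not lower than sequence just outside the edges of wide regions. Of 897 gaps of at most 300 bp, a BRD2 summit of replicate 1 lay in 8 and one of replicate 2 in 12. The density in these gaps was 0.0639 and 0.0959 summits per kb, against 0.374 and 0.504 inside the regions. At the edges of regions of at least 2000 bp it was 0.0308 and 0.0400 in the last 500 bp outside. In the first 200 bp inside those edges it was 0.0714 and 0.0952. Gaps of 1000 to 2000 bp had 0.0709 and 0.0915. Regions without BRD2 had another H3K4me3 region within 2000 bp in 14.7% of cases, and regions with BRD2 in both lists in 9.25%.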
